A study of Mus musculus with 2 samples.

Results

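The 1000 strongest CTCF peaks on chromosomes 1 to 19 of the newborn mouse hindbrain nearly all carried the CTCF binding sequence at their summit. For that, the sequence had to lie within 50 bp with at most 2 mismatches. Within the wider 100 bp, 196 of the 1000 (19.6%) carried it more than once, against 4.20% of all reproducible peaks on these chromosomes. The 1000 peaks were selected on the signal that the authors deposited for each peak of the reproducible ("optimal") peak set. That set holds 62686 peaks, 61263 of them on these chromosomes. The members are thus 1.63% of the autosomal set, and there were no ties in signal at the limit or above it. Their pooled signal ran from 684.6 at the strongest peak to 447.39 at rank 1000, with a median of 477.0 against 73.8 over all autosomal optimal peaks. That signal is a score on the peak caller's own scale without a stated unit. Because it chose the members, it is given here as a description only.

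The tissue was the hindbrain, the part of the brain that forms the cerebellum, pons and medulla, dissected at postnatal day 0. The mice were of the strain B6NCrl. In ChIP-seq, DNA bound by a protein, here CTCF, is pulled down with an antibody and sequenced. Both libraries belong to 1 group. They are labelled biological replicates 1 and 2 but come from the same pool of pulverised hindbrains, so differences between them may be only technical. The labels name no transgene or treatment, and the sex of the animals was not collected. With no second condition, comparisons were made between stretches of sequence within the same peaks, and shares of the members were set beside those of the next 1000 peaks of the ranking and of all autosomal optimal peaks, which include the members. Each library has its own list of 300000 candidate peaks. Read counts are not in the peak lists, so depth is unknown, and intervals cover counting error over peaks only. In a pool of whole hindbrains, a site bound in more cells cannot be told apart from a site bound more strongly per cell.

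CTCF is a zinc finger protein whose row of fingers reads a long, directional DNA site. The central fingers read the core of that site, and fingers at one end can read a short further element upstream of it. Bound CTCF stops the cohesin ring as it extrudes chromatin loops, in a direction set by the strand of the site, so that loops tend to form between sites that face each other. CTCF is present in nearly all cell types, and many of its sites are bound in most tissues.

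The sequences below are the 8 strongest members with exactly 2 separate matches to the 14 bp CTCF core consensus. Matches were counted within 100 bp of the summit with at most 2 mismatches each, and separate matches start at least 14 bp apart. They are shown because paired matches were most frequent among the first 100 ranks. Both cores are in capitals, with 8 bases to each side. Where both cores lie on 1 strand, that strand is printed. Otherwise the plus strand is printed, and a core on the minus strand appears as its reverse complement. Positions are on mm10, and the name is that of the nearest protein-coding start site, which need not be a target of the peak.
Fam129b, chr2:32912588-32912652, plus strand: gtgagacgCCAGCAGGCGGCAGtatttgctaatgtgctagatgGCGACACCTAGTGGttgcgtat
Rbm19, chr5:120102922-120102997, minus strand: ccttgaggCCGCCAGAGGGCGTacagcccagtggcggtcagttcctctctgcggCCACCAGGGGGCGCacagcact
Iqsec1, chr6:90737558-90737634, plus strand: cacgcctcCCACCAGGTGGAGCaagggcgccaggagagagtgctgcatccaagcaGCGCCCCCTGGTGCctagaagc
Pink1, chr4:138319678-138319739, plus strand: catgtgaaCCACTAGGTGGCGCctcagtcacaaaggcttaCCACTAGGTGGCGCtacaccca
Hif1an, chr19:44582772-44582901, plus strand: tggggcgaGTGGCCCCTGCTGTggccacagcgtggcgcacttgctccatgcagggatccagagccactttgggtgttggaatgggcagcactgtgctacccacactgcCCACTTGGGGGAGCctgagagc
Kcnk18, chr19:59239624-59239697, plus strand: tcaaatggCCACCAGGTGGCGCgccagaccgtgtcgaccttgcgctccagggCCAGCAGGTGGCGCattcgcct
Col18a1, chr10:77130727-77130790, plus strand: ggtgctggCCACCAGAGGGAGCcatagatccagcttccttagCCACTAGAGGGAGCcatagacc
Fnbp1l, chr3:122638802-122638884, minus strand: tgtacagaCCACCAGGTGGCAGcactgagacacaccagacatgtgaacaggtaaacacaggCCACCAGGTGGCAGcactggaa

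The strongest member, in an intron of Fam129b 1710 bp from its nearest start site, had 1 core on each strand, 35 bp apart and facing each other, with 1 mismatch in each. The peak nearest Rbm19, which encodes a nucleolar RNA-binding protein, had both cores on the minus strand 46 bp apart. In an intron of Pink1, the gene of a kinase of mitochondrial quality control, 2 perfect cores of the same sequence followed each other 32 bp apart. The peaks nearest Kcnk18, the gene of a potassium channel, and Fnbp1l likewise had 2 perfect cores on 1 strand, 44 bp and 53 bp apart. At Iqsec1, which encodes an exchange factor for ARF GTPases, the cores faced each other 47 bp apart. The peak nearest Hif1an, the gene of an oxygen-sensing hydroxylase of HIF1A, had them facing away from each other at 100 bp, each with 2 mismatches. Of these 8 pairs 5 were on a single strand.

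Among all members, 934 of 1000 (93.4%, 95% Wilson interval 91.7% to 94.8%) had a core match with at most 2 mismatches wholly within 50 bp of the summit. The share was 65.3% over all autosomal optimal peaks and 92.2% for the next 1000 peaks, so the members stood far above the whole set and close to the peaks just below them. Windows of the same length 1 kb to the left and right of the same summits held a match in 38 and 31 members (3.80% and 3.10%). A match at the summit without one on the left was found in 897 members and the reverse in 1 (exact McNemar test, two-sided, Benjamini-Hochberg adjusted over 8 tests, p = 6.81e-267). For the right flank the counts were 910 and 7 (exact McNemar test, adjusted p = 7.69e-259).

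A perfect core was present in 322 members (32.2%, 29.4% to 35.2%), against 8.71% of all autosomal optimal peaks and 30.8% of the next 1000 peaks. With at most 1 mismatch the member share was 70.0%, against 34.6% of the whole set, and with at most 3 it was 98.3%, against 86.2%. A perfect core was present in 32 of the first 100 members and in 28 of the last 100, and per 100 members the number lay between 28 and 42.

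The share with at least 2 separate matches was highest at the top of the ranking. It was 19.6% of the members (196 of 1000, 17.3% to 22.2%), against 4.20% of all autosomal optimal peaks and 8.40% (6.84% to 10.3%) of the next 1000 peaks. The level depended on the definition of a match: it was 6.10% of the members with at most 1 mismatch, 51.2% with at most 3, and 12.8% with at most 2 but both matches within 50 bp. Of the 10 strongest members 6 had at least 2 matches, of the 20 strongest 13, and of the 100 strongest 56 (56.0%, 46.2% to 65.3%). The next 3 sets of 100 members held 28, 22 and 17. From rank 401 on there were 9 to 15 per 100 members, with overlapping intervals. At least 1 match within 100 bp was present in 90 to 99 of each 100 members.

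**Figure D1:**
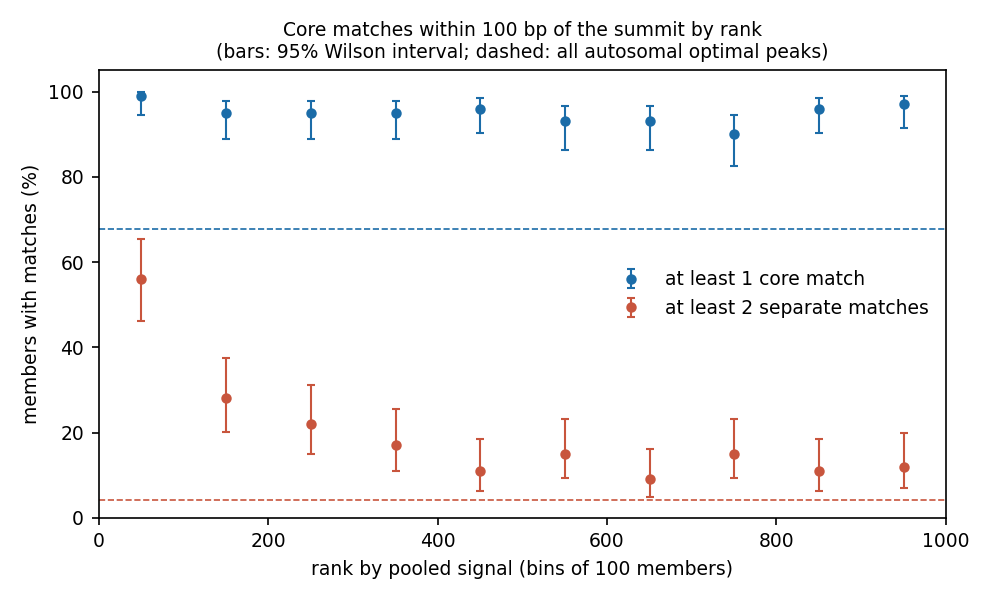
Percent of members with at least 1 (blue) and at least 2 separate (red) core matches within 100 bp of the summit, by rank in bins of 100 members; bars are 95% Wilson intervals and dashed lines the shares over all autosomal optimal peaks. The red points start at 56.0%, above all later bins, and the blue points all lie at 90.0% or above.

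A summit that already holds 1 core needs only 1 further match to count as a pair, so the pairs were set against any match in windows of the same length 1 kb away. Those windows held at least 1 match in 76 members on the left (7.60%, 6.11% to 9.41%) and 74 on the right (7.40%, 5.94% to 9.19%). A pair at the summit without a match on the left was found in 181 members and the reverse in 61 (exact McNemar test, two-sided, adjusted p = 8.71e-15). For the right flank the counts were 183 and 61 (exact McNemar test, adjusted p = 4.82e-15). In the next 1000 peaks there were 84 pairs, against 85 with any match on the left and 65 on the right, with overlapping intervals. The flanks were not matched to the summits in GC content, and this comparison was chosen after the data were seen. The count was also made in each library list on its own. Among the 1000 strongest autosomal peaks of the list of replicate 1, 195 had at least 2 matches, with 51 of them in its first 100 ranks and 11 in its last 100. For replicate 2 the counts were 191, 58 and 7. The pooled signal comes from these same libraries, and 758 members were among the 1000 strongest peaks of both lists. Largely the same peaks were thus counted again, and these counts are not an independent check. Further down the pooled ranking the share was 7.70% in ranks 2001 to 3000 and 5.00% in ranks 7001 to 8000. At least 3 separate matches were present in 7 members (0.700%, 0.339% to 1.44%), against 0.198% of all autosomal optimal peaks. In the next 1000 peaks there were 4 (0.400%, 0.156% to 1.02%), with an overlapping interval.

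Peaks with at least 2 matches were wider, with a median of 332.5 bp against 293 bp for members with 1 match, and they had a median pooled signal of 501.7 against 474.6. Members with no match within 100 bp had a median signal of 471.1. Width and signal come from the same peak calls as the ranking, so these values are a description. The gene context of the pairs was mixed. They were found in 32 of 191 members at promoters (16.8%) and 15 of 53 in exons (28.3%). In introns they were found in 62 of 344 (18.0%) and between genes in 87 of 412 (21.1%). The Wilson intervals of these shares overlapped. Over all autosomal optimal peaks the shares were 3.93%, 5.24%, 4.15% and 4.26%, in the same order. In the next 1000 peaks they were 10.7%, 5.00%, 9.22% and 7.18%, with exons lowest.

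In the 189 members with exactly 2 matches, both were on the same strand in 124 (65.6%, 58.6% to 72.0%), facing each other in 34 and facing away in 31. The division between the same strand and opposite strands differed from an even one (exact sign test, two-sided, adjusted p = 2.43e-05, chosen after the data were seen). In the next 1000 peaks both matches were on the same strand in 40 of 80 (39.3% to 60.7%), and over all autosomal optimal peaks in 1221 of 2450 (49.8%). The members' share was 76.4% (42 of 55, 63.7% to 85.6%) in the first 100 ranks, 73.9% (34 of 46, 59.7% to 84.4%) in the next 200 and 54.5% (48 of 88, 44.2% to 64.5%) from rank 301 on. The interval of the last of these includes an even division, and the difference between rank classes was not tested.

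The starts of paired matches were 14 to 132 bp apart, with a median of 54.0 bp and quartiles of 44.0 and 70.0 bp. The pooled summit fell between the 2 matches in 164 of the 189 (86.8%), against 67.5% in the next 1000 peaks and 66.6% over all autosomal optimal peaks. Both cores were perfect in 11 of the 189 members, against 22 of the 2450 pairs over all autosomal optimal peaks. In 11 members both cores had the same 14 bases (5.82%, against 2.12% of all autosomal pairs). Among the 124 tandem pairs, the first core along the strand had fewer mismatches in 31 and the second in 37, and the summit was nearer the first in 59. The Wilson intervals of the first of these counts overlap (18.2% to 33.3% and 22.5% to 38.4%), and that of the last, 39.0% to 56.3%, includes an even division. Over all autosomal optimal peaks the first core had fewer mismatches in 335 of 1221 tandem pairs and the second in 289. There the summit was nearer the first in 638 (52.3%, 49.4% to 55.0%).

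**Figure D2:**
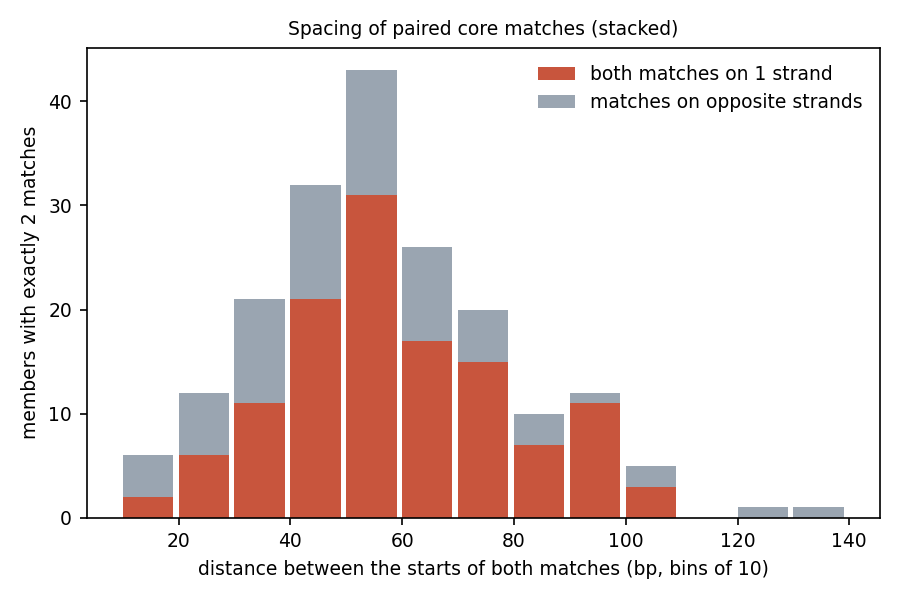
Number of members with exactly 2 core matches by the distance between the starts of both matches, in bins of 10 bp; red bars are pairs on 1 strand and grey bars, stacked on top, pairs on opposite strands. The tallest bin is 50 to 59 bp with 31 tandem and 12 opposite pairs.

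The next sequences show the upstream element, written TGCANT, where it started 17 bp before the core in the 3 strongest such members (Ddr1, Prok2 and Nanog) and 18 bp before it in the 3 strongest of that kind (Chrm3, A830031A19Rik and Acox3). Element and core are in capitals, on the strand of the core. These were chosen after their spacing was seen.
Ddr1, chr17:35725766-35725812, minus strand: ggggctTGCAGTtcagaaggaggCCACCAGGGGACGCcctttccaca
Prok2, chr6:99804407-99804453, plus strand: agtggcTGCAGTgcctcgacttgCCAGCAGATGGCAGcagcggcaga
Nanog, chr6:122669603-122669649, plus strand: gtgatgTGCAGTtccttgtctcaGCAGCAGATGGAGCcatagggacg
Chrm3, chr13:9846996-9847043, minus strand: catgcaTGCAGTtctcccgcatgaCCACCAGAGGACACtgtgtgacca
A830031A19Rik, chr11:24049370-24049417, plus strand: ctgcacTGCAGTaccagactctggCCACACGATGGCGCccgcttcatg
Acox3, chr5:35595901-35595948, plus strand: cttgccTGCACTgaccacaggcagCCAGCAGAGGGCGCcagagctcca

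The element started 10 to 40 bp upstream of the core on the same strand in 179 of the 934 motif-bearing members (19.2%, 16.8% to 21.8%). That share was also 19.2% in the next 1000 peaks and 15.5% over all motif-bearing autosomal optimal peaks. The mirrored stretch downstream of the core held it in 41 members (4.39%), and the opposite strand of the upstream stretch in 7.07%. Present upstream only were 169 members and present downstream only 31 (exact McNemar test, two-sided, adjusted p = 9.10e-24). The opposite-strand and mirrored shares of the whole set were 7.37% and 3.79%.

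The position of the element was narrow. Of 179 elements 146 started 17 or 18 bp before the core, 102 at 17 bp and 44 at 18 bp, and no other distance held more than 4. The longer spacing made up 30.1% (23.3% to 38.0%) of these in the members, 31.0% in the next 1000 peaks and 18.4% (17.3% to 19.5%) over all motif-bearing autosomal optimal peaks. The strongest members with the element anywhere in the stretch were those nearest Pick1, Mvb12b, Ddr1, Twf2 and Prok2, and in 3 of these it lay off the common spacing, at 34, 11 and 10 bp. Among motif-bearing members, 156 of 744 with 1 match carried the element (18.2% to 24.0%) and 23 of 190 with at least 2 matches did (12.1%, 8.20% to 17.5%).

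**Figure D3:**
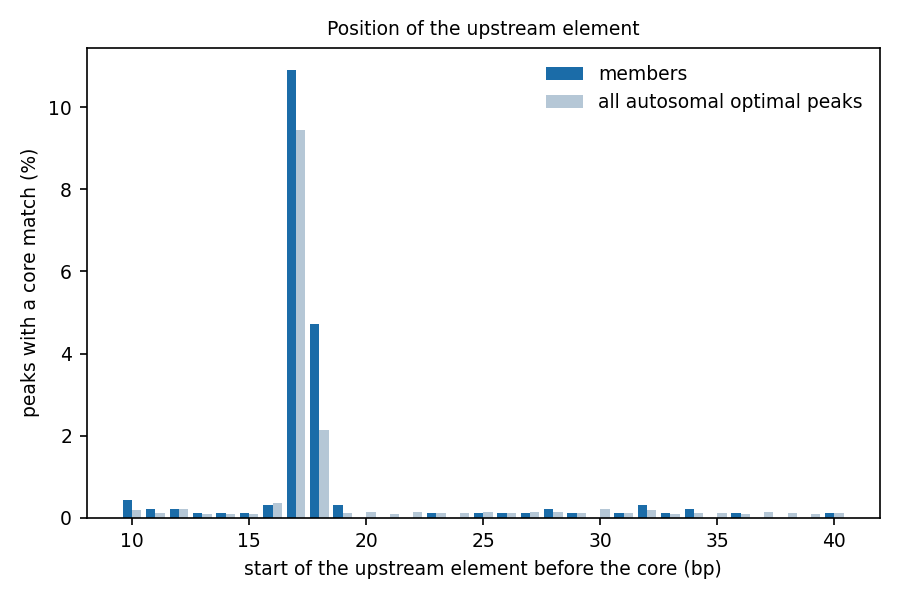
Percent of motif-bearing peaks whose upstream element started at each distance before the core, for the members (dark) and all autosomal optimal peaks (light). In the members 10.9% had it at 17 bp and 4.71% at 18 bp, against 9.45% and 2.13% in the whole set.

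Base preference extended beyond the core. Counted from the start of the core, with no position 0, the third base before it was T in 51.7% and A in 8.14% of members, against 34.4% and 27.6% over all motif-bearing autosomal optimal peaks. Position 19, downstream of the 14 bp core, was G in 53.3% of members and 33.4% of the whole set. The tenth base before the core was C in 57.5% and 46.4%. The next 1000 peaks were close to the members at all of these positions. There the third base before the core was T in 51.0% and A in 9.65%. Position 19 was G in 50.7%, and the tenth base before the core was C in 58.7%. Over the 20 bases before the core the information content summed to 2.76 bits in the members, 2.90 bits in the next 1000 peaks and 1.41 bits in the whole set, and over the 26 bases after it to 2.19, 1.84 and 1.35 bits. Within the core, which was searched for, the members held 17.2 bits and the whole set 15.7. The groups also differed in repeats. The core lay wholly in soft-masked sequence, marked as repeats in the reference, in 3.64% of motif-bearing members. That share was 5.21% in the next 1000 peaks and 21.3% in the whole set. The base shares here and the mismatch shares below were not split by repeats.

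**Figure D4:**
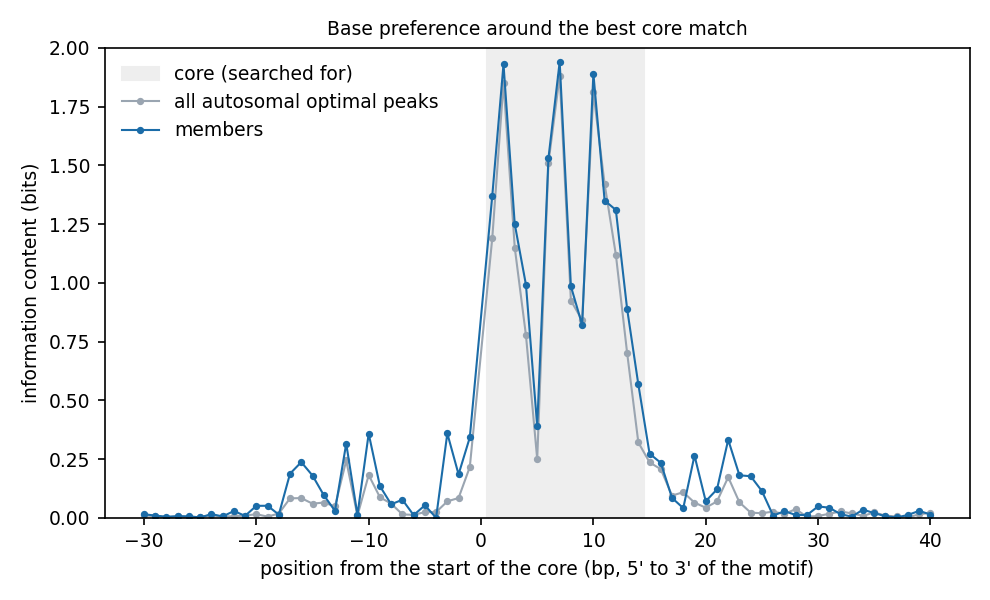
Information content in bits at each position around the best core match, for the members (blue) and all autosomal optimal peaks (grey); the shaded core was itself searched for, and there is no position 0. The blue line lies above the grey one at -10, -3 and 19.

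Mismatches in the core were unevenly placed. Position 5 differed from the consensus in 159 of the 934 motif-bearing members and in 30.6% of motif-bearing peaks of the whole set. Position 12 differed in 12.2% and 16.7%, and position 13 in 1.61% and 5.53%. Positions 7 and 8 differed in 0.642% and 0.535% of members. A CpG, the dinucleotide that is methylated in mammals, stood at core positions 12 and 13 in 403 of 934 motif-bearing members (43.1%), 42.4% of the next 1000 peaks and 28.6% of the whole set. Methylation was not measured in these libraries.

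The summit lay on the 3′ side of the centre of the best match in 551 members and on the 5′ side in 383 (41.0% on the 5′ side, exact sign test, two-sided, adjusted p = 5.71e-08). The median shift was 1.50 bp along the strand of the motif, and the median distance was 4.50 bp. In members with 1 match, the 3′ side held the summit in 60.2% (56.7% to 63.7%), against 55.0% in the next 1000 peaks and 52.5% over all autosomal optimal peaks with 1 match.

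No core match within 50 bp was found in 66 members. Of these 49 had a best match with 3 mismatches, 15 with 4 and 2 with 5, and 15 had a match further out, within 100 bp. They were at promoters in 23 of 66 (34.8%, 24.5% to 46.9%), against 19.1% of all members. The core was also rarer at promoters over all autosomal optimal peaks, in 46.4% of promoter peaks against 65.3% of all peaks. The lines below show 3 of the 5 strongest of the 66 members. The 14 bases nearest the core consensus are in capitals, with 15 bases to each side. Within 100 bp of the summit, the peak nearest Hif1an had 2 matches with at most 2 mismatches, that nearest Rdh13 had 1 and that nearest Rab2b none. The best stretch nearest Rab2b, the gene of a small GTPase, differed from the consensus at 3 positions and that nearest Rdh13 at 4.
Hif1an, chr19:44582781-44582824, plus strand: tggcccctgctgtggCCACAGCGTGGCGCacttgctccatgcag
Rdh13, chr7:4427418-4427461, plus strand: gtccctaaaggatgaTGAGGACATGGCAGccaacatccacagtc
Rab2b, chr14:52279452-52279495, plus strand: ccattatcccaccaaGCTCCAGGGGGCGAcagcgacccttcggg

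The peak nearest Hif1an, rank 9, had no match wholly within 50 bp, since its 2 cores, printed above, lay on either side of the summit at the edge of that window or beyond it. The peak at Rab2b and Tox4, 77 bp from a start site, ranked 49 and 109 in the libraries. Another of the 5 strongest, nearest Txnl1, had 2 matches within 100 bp but none wholly within 50 bp of its summit, and ranked 15 and 54.

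All 1000 members were overlapped by a peak of both library lists and by a peak of the authors' conservative set. The conservative set overlapped 87.0% of all autosomal optimal peaks and all of the next 1000 peaks. Each library list holds 300000 candidates, and the IDR sets were made from these and the pooled lists. Overlap with both lists was thus largely given in advance, and its share over all optimal peaks was not computed. The pooled signal that ranked the members comes from these libraries, so the ranks are given without a test. Among the 1000 strongest peaks of both lists were 758 members (75.8%, 73.0% to 78.4%). A further 120 were among them in replicate 1 only, 118 in replicate 2 only and 4 in neither. All 100 strongest members were in the first 1000 of both lists, and 6 of the last 100 members were.

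The order within the members repeated loosely. The larger of the library ranks was a median 1.58 times the smaller, more than 2 times in 308 members and more than 5 times in 24. Spearman's rho between the library ranks was 0.564 over the 1000 members, a description of peaks chosen on the pooled signal. The lists were evenly balanced, with 495 members ranked higher in replicate 1 and 505 in replicate 2. The lowest rank of a member was 2404 in replicate 1 and 2102 in replicate 2.

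The strongest member, in Fam129b, ranked 4 in replicate 1 and 2 in replicate 2. The peak 61 bp from the start of Rrp1, a gene of ribosomal RNA processing, was member 5, with rank 1 in replicate 1 and 28 in replicate 2, the largest ratio of all (28.0). The peak nearest Trpv4, the gene of a cation channel, ranked 2404 and 228. The peaks nearest Endov, Mcph1 and Cdh5 leaned the other way, with ranks 119 and 1091, 163 and 1478, and 103 and 849. These 5 had 1 core match each. Members ranked 11 to 20 were nearest Col18a1, Fnbp1l, Srgap1, Crybb3, Pde6a, Caln1, Med4, Fam69b, Enah and Comtd1, and 7 of these 10 had 2 matches. Their ranks ran from 10 to 43 in replicate 1 and from 4 to 21 in replicate 2.

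**Figure D5:**
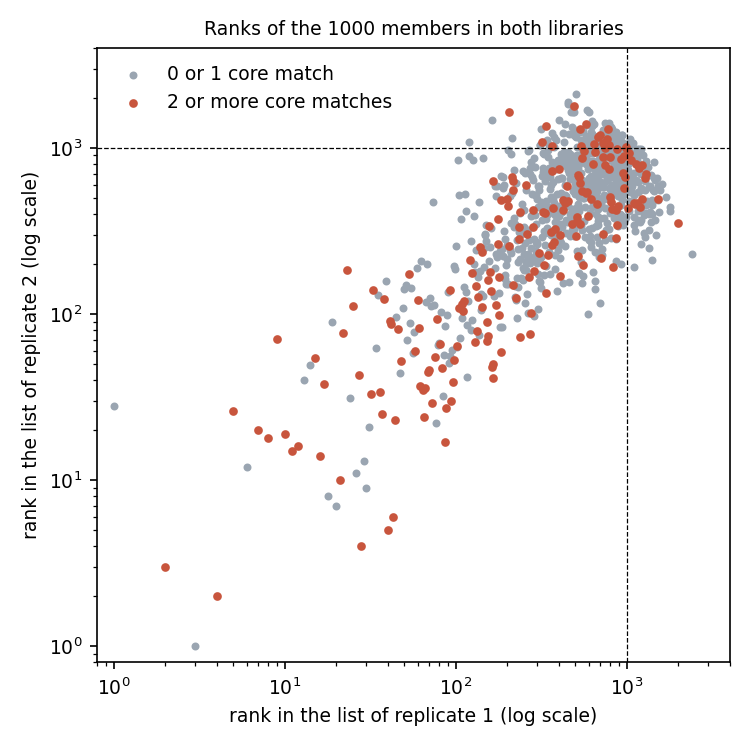
Rank of each of the 1000 members in the peak list of replicate 1 against its rank in that of replicate 2, both on log scales; red points have at least 2 core matches and dashed lines mark rank 1000. All points lie at ranks of at most 2404 and 2102, and 4 lie beyond both dashed lines.

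At the limit of the ranking, the last 5 members were nearest BB014433, Smurf1, Icos, Dlg5 and Tmcc3, with signals from 447.75 down to 447.39. The first 5 peaks left out, nearest Jph3, Impdh1, Thnsl1, Snx20 and Slc22a8, had signals from 447.34 to 447.10. Outside the autosomes, 2 optimal peaks reached the limit, 1 of them on X, and were not taken.

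Members at promoters, within 1 kb of an annotated start site, numbered 191 (19.1%, 16.8% to 21.7%), close to the 21.1% of all autosomal optimal peaks. Exons held 53, introns 344 (34.4%, against 40.2% of the whole set) and the space between genes 412 (41.2%, 38.2% to 44.3%, against 33.5%). The next 1000 peaks gave 17.8% at promoters and 40.4% between genes. The promoter members carried the core in 88.0% (82.6% to 91.8%), against 46.4% of all promoter peaks of the autosomal set. The strongest promoter members were at Pick1, which encodes a trafficking protein of glutamate receptors, Rrp1 and Iqsec1, followed among others by Gins4, the gene of a DNA replication factor, Polr3gl, the gene of an RNA polymerase III subunit, and Ccdc110.

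Where a promoter member had genes on 1 strand only, its core was on the strand of the gene in 81 of 149 (54.4%, 46.4% to 62.2%). That did not pass the test (exact sign test, two-sided, adjusted p = 0.326). The share was close to that of all autosomal optimal peaks, 2861 of 5355 (53.4%, 52.1% to 54.8%), and to the 53.1% of the next 1000 peaks. With promoters narrowed to 500 bp the share was 67 of 107 (62.6%, 53.2% to 71.2%, exact sign test, adjusted p = 0.0116), so the call depended on that width. In introns the core was on the strand of the host gene in 119 of 285 (41.8%, 36.2% to 47.6%), against 51.0% in the next 1000 peaks and 49.3% over all autosomal optimal peaks. That difference was not tested.

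Summits in soft-masked sequence, the part of the reference marked as repeats, were few: 45 members (4.50%, 3.38% to 5.97%), against 18.5% of all autosomal optimal peaks, 5.30% of the next 1000 peaks and 33.5% of autosomal bases. Within 500 bp of the summit the median GC content was 51.0% in the members, 49.4% in the next 1000 peaks and 46.9% in the whole set. The median ratio of observed to expected CpG was 0.290, 0.274 and 0.233, and 76 members (7.60%) had a ratio over 0.6, against 10.1% of the whole set.

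Along the chromosomes the members were spaced unevenly. Chromosome 11 held 103, or 0.867 per Mb of ungapped sequence (exact Poisson interval 0.708 to 1.05), and chromosome 3 held 25, or 0.160 per Mb (0.103 to 0.236). All optimal peaks also differed, at 38.2 and 19.1 per Mb, and the members were 2.27% of them on chromosome 11 and 0.836% on chromosome 3, with Wilson intervals of 1.88% to 2.75% and 0.567% to 1.23%. Neighbouring members were a median 659.7 kb apart. Another optimal peak lay within 10 kb of 75.3% of members (72.5% to 77.9%), against 71.4% of the next 1000 peaks (68.5% to 74.1%), 62.3% of all autosomal optimal peaks and 85.8% of the 1000 weakest. Within 1 kb the counts were 97 of 1000 members and 7382 of 61263 in the whole set.

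The closest neighbours were 1141 bp apart in introns of Dnah17, which encodes a dynein heavy chain, at ranks 137 and 810. Both had a best core with 3 mismatches within 50 bp, on the plus and then the minus strand. A pair nearest Dhx35, at ranks 311 and 395, was 1518 bp apart with its cores facing away from each other. A pair nearest Lrrc74a, at ranks 48 and 856, was 2925 bp apart with cores facing each other.

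Of 915 neighbouring pairs of motif-bearing members, 235 faced each other (25.7%), 233 faced away (25.5%) and 447 were on 1 strand (48.9%). The shares are given by distance. Under 100 kb apart, 22 of 118 faced each other (18.6%, 12.6% to 26.6%) and 42 faced away (35.6%, 27.5% to 44.6%). At 100 to 500 kb, 85 of 259 faced each other (32.8%, 27.4% to 38.8%) and 55 faced away (21.2%, 16.7% to 26.6%). Further apart the intervals of both kinds overlapped, with 71 of 283 facing each other and 64 facing away at 0.5 to 2 Mb, and 57 and 72 of 255 over 2 Mb. Neighbouring pairs of all motif-bearing autosomal optimal peaks faced each other in 22.4% under 100 kb, 30.9% at 100 to 500 kb and 34.8% at 0.5 to 2 Mb, and faced away in 24.9%, 16.4% and 13.4%. Those are a different kind of pair, with no other motif-bearing optimal peak in between. Pairs of members pass over any weaker optimal peaks between them, and a member had a mean of 11.7 other optimal peaks within 100 kb. No test was run on these shares.

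Seen from a member along the strand of its core, the next motif-bearing optimal peak ahead was on the opposite strand in 42.7% (39.6% to 45.9%), against 44.5% (41.3% to 47.7%) for the next 1000 peaks and 47.4% for all autosomal optimal peaks. The next one behind was on the opposite strand in 54.3% (51.1% to 57.5%), against 47.4%, and 49.4% for the next 1000 peaks. The median distance was 18.3 kb ahead and 12.6 kb behind. These shares were not tested.

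Members were counted at the start sites of genes listed for this tissue and of other gene lists. Over all autosomal protein-coding genes, 160 of 20780 (0.770%) had a member within 1 kb of a start site. Of 10 autosomal neuronal marker genes Rbfox3, which encodes the neuronal nuclear protein NeuN, had one (rank 653, library ranks 647 and 656). Of 11 glial marker genes Gfap, the gene of the astrocyte filament protein, had one (rank 237, library ranks 701 and 116). Of 39 Hox genes Hoxa7 had one (rank 899, library ranks 1133 and 808), and of 80 cytosolic ribosomal protein genes Rpl26 had one (rank 638, library ranks 662 and 646). The lists of 12 hindbrain patterning genes, 12 granule lineage genes, 12 forebrain genes, 12 liver genes, 12 genes of blood, vessels and microglia, 14 cohesin and CTCF factors, 26 imprinted genes and 56 clustered protocadherins had none. At 0.770% over all genes, lists this short cannot show a lack of members. Within 10 kb the share was 2.91% of all genes, 8 of 80 ribosomal protein genes and 3 of 39 Hox genes. The neuronal, glial, granule lineage and imprinted lists had 1 gene each within 10 kb, and the remaining lists had none. These counts were not tested. Peaks cannot check the labelled tissue by marker expression, since CTCF binding at a gene does not report its activity.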

How the data were processed

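Peak lists from 2 CTCF ChIP-seq libraries of newborn mouse hindbrain were used, all in the narrowPeak layout on mm10. Per the deposited file descriptions, each library's list came from its alignments with a control alignment, and the IDR sets from the single-library and pooled lists. The authors' signal column has no stated unit and was used only to rank peaks within a list. The q values are −log10 values as deposited and had their maximum in every member. They also had it in all of the next 1000 peaks and in 79.6% of all autosomal optimal peaks. The deposited IDR score was 1000 for every member, and 1000 was also its lower quartile over all autosomal optimal peaks. For the aligner, peak caller and IDR threshold the sources used here give nothing, and control libraries were not used here.

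Library ranks are those of the strongest overlapping peak in the whole list. The 14 bp core consensus was searched on both strands, the best match having the fewest mismatches, with ties broken by distance from the summit. Genes are GENCODE M21 and promoters lie within 1 kb of any start site. Intervals are 95% Wilson intervals, and p-values come from exact McNemar and exact sign tests, adjusted over 8 tests, at a threshold of 0.05 (Python 3.11.15, scipy 1.17.1). The motif search was tested on simulated data. Labels put both libraries in 1 group. Members, gene lists and tests were chosen with earlier results of these data known, and named peaks follow a rule by rank, motif class, library rank ratio, spacing and gene list. Alternatives were other peak sets, member numbers, mismatches, windows, promoter widths and single libraries. No sequence from 43 members was printed, and a peak that the rule would name is not reported here.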

Additional observations from a re-analysis of the deposited data

How the results depend on the processing

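The results were recomputed with the conservative set, the 500 or 2000 strongest peaks, each library list alone, merged neighbouring summits, other mismatch limits, windows, flanks, promoter widths and overlap rules. Of the alternative values 93 kept their direction and their side of the threshold or moved by less than their counting error. Some of these could not have changed. The conservative set overlapped every member and returned the main value each time. Merging summits under 150 bp apart also changed nothing, since the closest autosomal optimal summits were 199 bp apart. Neither serves as a check. The share of members at promoters was 13.2% with promoters of 500 bp, 31.4% with 2.5 kb and 14.8% with protein-coding genes only, which follows from the width and the gene set. The promoter strand share reached 62.6% at 500 bp and passed the threshold there (exact sign test, adjusted p = 0.0116), against adjusted p-values of 0.221 to 0.608 under its other alternatives. The median distance between neighbouring members was 1371 kb for the 500 strongest and 347 kb for the 2000 strongest, which follows from their number. The share with at least 2 matches was 26.8% for the 500 strongest, 280 of the 2000 strongest, 6.10% with 1 mismatch, 51.2% with 3 mismatches and 12.8% with both matches within 50 bp. These alternatives, and those of the share on 1 strand, were chosen after the data were seen. No paired analysis was possible because the labels give 1 group. Depth is unknown, so its effect was not tested.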
